A study of Mus musculus with 6 samples.

Results

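The 10 genes described here are effectors of the FoxO transcription factors that hold back growth or protect resting cells: Sesn1, Sesn3, Fbxo32, Klhl24, Cdkn1b, Ccng2, Txnip, Bcl6, Ddit4 and Sod2. They were taken by name, with every probe set that the platform annotation gives that 1 symbol, and all 10 were measured, by 27 probe sets, among 18193 genes on the arrays. They were chosen with the difference between P4 and oil on these same arrays in view, so that their differences are given as a description with no test.

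The samples were uterine horns of 8-week-old female mice of mixed background that had been ovariectomized, which removes the main source of ovarian steroids. Treatment was with P4, the usual abbreviation of progesterone, for 3 arrays, which were set against 3 arrays of treatment with oil, in which steroids are commonly dissolved. Mice of both groups carried the GATA2 f/f genotype, by convention a floxed allele on both chromosomes, and the labels name no recombinase, so that no wild-type or deleted allele was compared. The labels give no dose, no time after treatment and no statement that arrays came from separate animals, so the spread between arrays may be technical. RNA came from horn tissue of many cell types, in which fewer cells of a type and less RNA per cell cannot be told apart.

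FoxO proteins bind DNA through a forkhead domain and are controlled mainly by their place in the cell. When insulin or growth factors activate phosphoinositide 3-kinase, the kinases AKT and SGK phosphorylate FoxO proteins, which then leave the nucleus. When that signal is weak, FoxO proteins stay in the nucleus and drive genes that stop the cell cycle, restrain the growth kinase mTORC1, break down protein and detoxify oxygen radicals. In the uterus FOXO1 is known as a partner of the progesterone receptor in the decidual response of stromal cells. Most of the 10 genes have other known inputs as well: glucocorticoids and hypoxia induce Ddit4, glucose induces Txnip, and inflammatory signals induce Sod2.

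Of the 10 genes, 8 were lower after P4, 1 (Sod2) was higher and 1 (Ddit4) overlapped between the groups. The 3 genes with the largest differences, Klhl24, Sesn3 and Fbxo32, were at less than 48% of their oil level: the linear ratio of P4 to oil means was 0.423, 0.448 and 0.477. The median log2 difference of the 10 genes was -0.68, against -0.01 for all genes, where each gene is read by its brightest probe set and differences are on the log2(intensity + 16) scale. In the fit over all genes (limma, Benjamini-Hochberg adjusted p under 0.05), 8 of the 10 passed as lower and 1 as higher. In that fit 13% of all genes passed in either direction, 6.94% as lower and 6.08% as higher. Since the genes were chosen on this contrast, nothing is read from their count. When arrays were scaled to their hybridisation controls, 75.5% of the calls over all genes were higher, against 46.7% without that scaling, and the count among the 10 genes was still 8 lower and 1 higher. With both arrays numbered 2 left out 3 passed, Sesn3, Fbxo32 and Klhl24. The log2 differences of those that no longer passed were then -0.49 for Sesn1, -0.51 for Cdkn1b, -0.72 for Ccng2, -0.65 for Txnip, -0.70 for Bcl6 and 0.59 for Sod2.

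**Figure D1:**
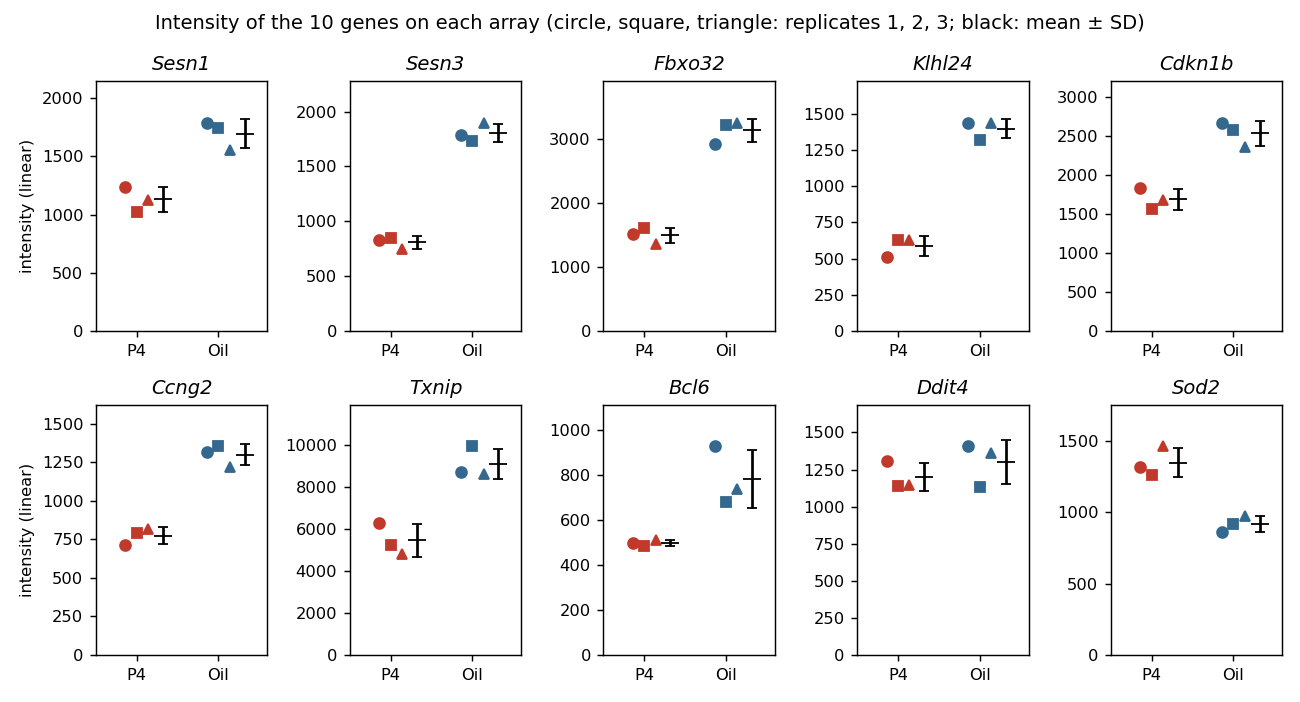
Linear intensity of the brightest probe set of each of the 10 genes on each array, P4 at the left and oil at the right of each panel; circles, squares and triangles are replicates 1, 2 and 3, and black bars give mean ± SD. In 8 panels the P4 arrays lie below the oil arrays, in the Sod2 panel they lie above, and in the Ddit4 panel the groups overlap.

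The sestrins Sesn1 and Sesn3 restrain mTORC1 by holding its activator complex GATOR2, and Sesn2, their relative, is also a sensor of leucine. Sesn3 had intensities of 832, 847 and 744 on the P4 arrays, against 1783, 1732 and 1898 on the oil arrays. All 3 P4 arrays lay below all 3 oil arrays, with a gap far wider than the spread within either group. The means were 808 ± 55.3 after P4 and 1804 ± 85.1 after oil (SD, n = 3 each), a log2 difference of -1.15 ± 0.08 (SE). The second probe set of Sesn3 was much dimmer and had 112, 130 and 112 after P4, against 212, 201 and 213 after oil (-0.74 ± 0.09), again without overlap.

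Sesn1 had 1238, 1024 and 1125 on the P4 arrays, against 1787, 1742 and 1553 on the oil arrays. The groups did not overlap, and the difference was about the size of that of Cdkn1b rather than that of Sesn3. Its means were 1129 ± 107 after P4 and 1694 ± 124 after oil (SD, n = 3 each; log2 difference -0.58 ± 0.10). Of its 4 probe sets 3 had no overlap, with log2 differences of -0.58, -0.54 and -0.38. The remaining one had 1055, 755 and 684 after P4, against 1052, 978 and 1142 after oil (-0.36 ± 0.15), where P4 replicate 1 reached into the oil range.

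Promoters of 8 of the 10 genes, in 10 windows, were found in the RefSeq promoter table of build GRCm38.p6, which holds 250 bases before and 50 after a start site; those of Fbxo32 and Klhl24 are not among them. A forkhead core, GTAAACA on either strand, was found in 2 of these 8 genes, Sesn1 and Txnip, and in 3.65% of all 32851 promoter windows. The insulin response core CAAAACA, a variant to which FoxO factors also bind, was found in 1 of the 10 windows, that of Ccng2. It was found in 6.28% of all windows. The windows are shown because they hold the letters that FoxO factors read, with each match in capitals. A match is a description of the letters and not a bound site, and no binding was measured here.

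Sesn1 has a pair of windows, of which the one with the match is chr10:41810324-41810623 on the plus strand, where the match starts at position 23 counted from the start site as position 1. In the Txnip window, chr3:96557707-96558006 on the plus strand, the forkhead core starts at position -121. A further run of capitals in it starts at position -172 and matches the palindromic hormone response element that progesterone and glucocorticoid receptors share, which 0.475% of all windows hold. The Ccng2 stretch is chr5:93267527-93267593 on the plus strand, with its match at position -16. The remaining motifs searched on both strands were the E-box CACGTG and the GATA core AGATAA. Each was found in 1 of the 10 windows, the E-box in Bcl6 (7.15% of all windows) and the GATA core in Sesn3 (11.2% of all windows). No match overlapped another.
Sesn1: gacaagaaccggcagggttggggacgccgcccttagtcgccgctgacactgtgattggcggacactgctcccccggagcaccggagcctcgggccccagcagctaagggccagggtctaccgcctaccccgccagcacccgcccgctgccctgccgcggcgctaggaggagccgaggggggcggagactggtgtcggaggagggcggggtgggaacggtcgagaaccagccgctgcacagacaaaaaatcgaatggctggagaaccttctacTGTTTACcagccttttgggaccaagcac
Txnip: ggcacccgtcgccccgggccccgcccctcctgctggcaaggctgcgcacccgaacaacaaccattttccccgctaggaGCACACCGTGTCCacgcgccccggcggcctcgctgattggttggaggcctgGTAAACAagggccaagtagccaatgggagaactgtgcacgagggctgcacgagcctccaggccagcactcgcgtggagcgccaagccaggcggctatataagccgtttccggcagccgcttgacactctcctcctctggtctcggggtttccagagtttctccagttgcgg
Ccng2: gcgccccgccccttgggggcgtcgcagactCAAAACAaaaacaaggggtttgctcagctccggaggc

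Fbxo32, also called atrogin or MAFbx, is the substrate adaptor of a ubiquitin ligase and is best known as a marker of muscle wasting. It had 1515, 1609 and 1369 on the P4 arrays, against 2934, 3230 and 3262 on the oil arrays, with means of 1498 ± 121 after P4 and 3142 ± 181 after oil (SD, n = 3 each). P4 arrays were about the same among themselves, and the lowest oil array stood well above the highest P4 array. The log2 difference was -1.06 ± 0.09, and those of its other 2 probe sets were -1.22 ± 0.21 and -1.28 ± 0.15. On both of these the oil group was wider: one had 1382, 1220 and 914 after P4, against 3049, 3280 and 1986 after oil, with oil replicate 3 the lowest oil array.

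Trim63, the second ligase of muscle wasting, did not pass: it had 119, 123 and 66.2 after P4, against 117, 196 and 103 after oil (log2 difference -0.38 ± 0.26, limma adjusted p 0.444). Since Fbxo32 is abundant in muscle, the smooth muscle markers stand beside it: 0 of 7 passed in limma in either direction, and 0 had an unadjusted p under 0.05. Their log2 differences ran from -0.28 for Smtn to 0.11 for Des, with a median of -0.01. Their summed intensity was 40829, 47884 and 41130 on the P4 arrays, against 44996, 44714 and 45091 on the oil arrays. P4 replicates 1 and 3 lay below every oil array and P4 replicate 2 above. The part of smooth muscle in the Fbxo32 difference was not tested. Fbxo25, the closest relative of Fbxo32, was lower by -0.40 ± 0.08 (limma adjusted p 0.0170). That call was lost without P4 replicate 2 or 3 or oil replicate 1 or 2 (adjusted p up to 0.0809) and with both arrays numbered 2 left out (0.186). It was also lost when arrays were scaled to their hybridisation controls (0.0934).

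Klhl24 encodes a Kelch-like adaptor of a cullin 3 ubiquitin ligase and is a recurrent FoxO target in several cell types. It had 511, 626 and 632 on the P4 arrays, against 1433, 1319 and 1437 on the oil arrays, with no overlap. The means were 590 ± 68.2 after P4 and 1396 ± 67.0 after oil (SD, n = 3 each), a log2 difference of -1.23 ± 0.10, the largest in size of the 10 genes on that scale. All 5 of its probe sets were lower after P4 without overlap, from -0.35 ± 0.11 to -1.52 ± 0.11. The probe set with the largest difference had 175, 159 and 168 after P4, against 561, 542 and 432 after oil. The dimmest one stood between the 4.8th and the 23.6th percentile of all probe sets with 1 symbol, where the added 16 shrinks a log2 difference.

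**Figure D2:**
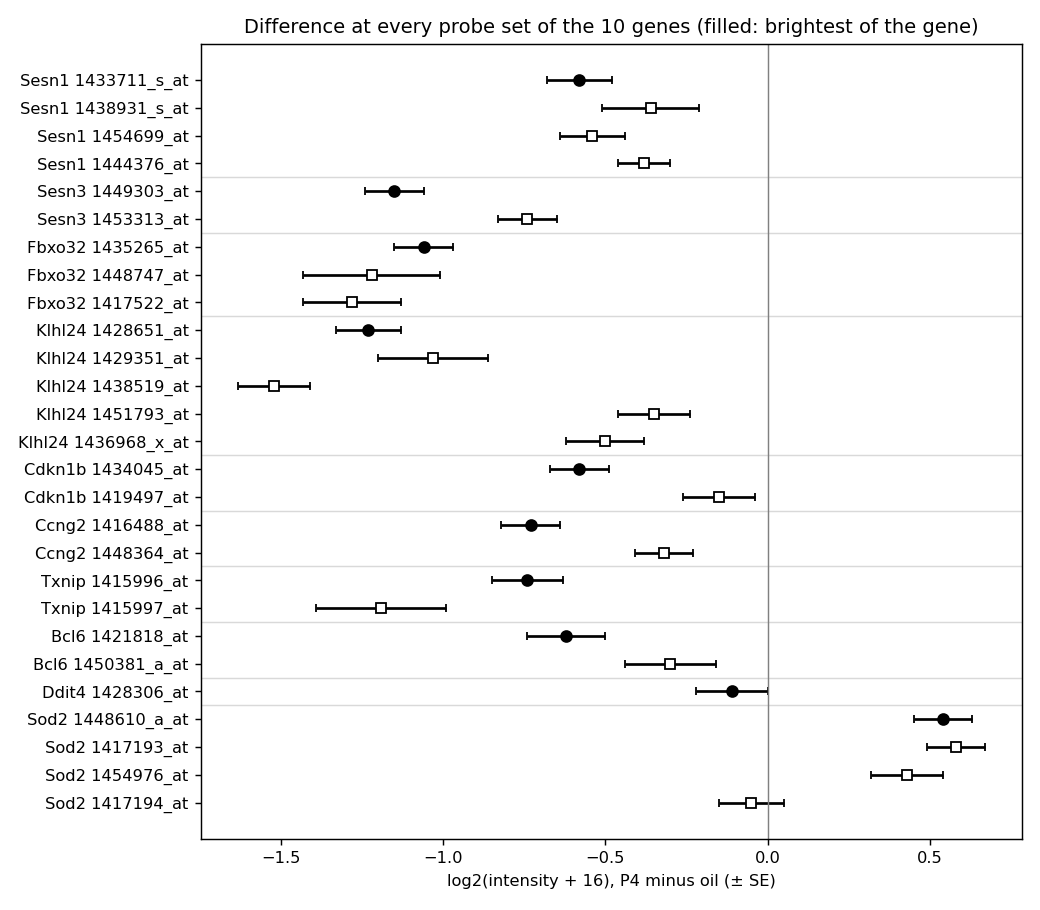
Log2 difference of P4 minus oil with its SE at each of the 27 probe sets, grouped by gene; filled circles are the brightest probe set of each gene and open squares the others. Among the filled circles those of Klhl24, Sesn3 and Fbxo32 lie farthest to the left, and 3 of the 4 Sod2 probe sets lie to the right of 0.

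Over all 27 probe sets, 19 had every P4 array below every oil array and 3 had every P4 array above every oil array. Among all 34945 probe sets with 1 symbol these shares were 14.8% and 13.8%. Of the 5 probe sets that overlapped, 1 each belonged to Sesn1, Cdkn1b, Bcl6, Ddit4 and Sod2. Probe sets of 1 gene share their RNA and are not replicates of each other.

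The genes that act on the cell cycle were lower with smaller differences. Cdkn1b encodes an inhibitor of cyclin-dependent kinases that holds cells in a resting state. It had 1832, 1564 and 1679 after P4, against 2669, 2577 and 2352 after oil, with no overlap (means 1692 ± 134 after P4 and 2533 ± 163 after oil, SD, n = 3 each; log2 difference -0.58 ± 0.09). Its second probe set was dim, at 90.6, 101 and 76.7 after P4, against 107, 105 and 90.7 after oil, and overlapped (-0.15 ± 0.11). Cdkn1b is known to be controlled largely through breakdown of its protein, which arrays do not measure.

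Ccng2 encodes cyclin G2, an unusual cyclin that is high in cells that leave the cycle. It had 713, 795 and 817 after P4, against 1321, 1354 and 1221 after oil. The groups lay far apart, with means of 775 ± 54.7 after P4 and 1299 ± 68.8 after oil (SD, n = 3 each; -0.73 ± 0.08). Its dimmer probe set had 120, 136 and 137 after P4, against 157, 168 and 178 after oil (-0.32 ± 0.09). Ccng1, a cyclin of the same family known mainly as a target of the tumour suppressor p53, went the other way: it had 3446, 2798 and 2072 after P4, against 1241, 1244 and 1087 after oil, and rose by 1.18 ± 0.17 (limma adjusted p 0.00507, but 0.111 with both arrays numbered 2 left out).

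Bcl6, a transcriptional repressor of the zinc finger class, had 497, 485 and 510 after P4, against 926, 681 and 739 after oil. The P4 arrays were tight and the oil arrays wide, oil replicate 1 being the highest, yet the groups did not overlap (means 497 ± 12.8 after P4 and 782 ± 128 after oil, SD, n = 3 each; -0.62 ± 0.12). In the fit without P4 replicate 2 Bcl6 no longer passed, with a difference of -0.61. Its second probe set, which overlapped, had 346, 243 and 268 after P4, against 344, 318 and 402 after oil (-0.30 ± 0.14). Bcl6 is high in germinal centre B cells, whose marker Cd79a averaged 62.1 after P4 and 55.9 after oil, and whose marker Ms4a1 averaged 51.6 after P4 and 46.0 after oil. Of the 5 lymphocyte markers measured 0 passed in the limma fit, and 0 had an unadjusted p under 0.05. Their part in the Bcl6 difference was not tested.

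Txnip, an arrestin-like protein that binds thioredoxin and slows glucose uptake, had the brightest probe set of the 10, at the 99.1st percentile or above on every array. It had 6304, 5248 and 4809 after P4, against 8722, 9930 and 8616 after oil, with no overlap (means 5454 ± 768 after P4 and 9089 ± 730 after oil, SD, n = 3 each; -0.74 ± 0.11). The second probe set had 376, 431 and 290 after P4, against 692, 1153 and 754 after oil (-1.19 ± 0.20). Its promoter window, printed above, was the 1 of the 10 windows with both a forkhead core and the steroid receptor palindrome.

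Among the arrestin-domain relatives of Txnip, Arrdc3 fell to 484, 441 and 521 after P4, against 1192, 1175 and 1019 after oil (-1.20 ± 0.10, limma adjusted p 0.000672). Arrdc4, which glucose induces together with Txnip, missed the threshold at -0.61 ± 0.17 (limma adjusted p 0.0515), and passed with the replicate number as a block (0.029), without P4 replicate 1 (0.0137) and without the dimmest genes (0.0431). Of the sugar-sensing factors upstream of Txnip, Mlxipl, named after its values were seen, had 130, 110 and 116 after P4, against 125, 100 and 119 after oil, and did not pass (0.04 ± 0.11, limma adjusted p 0.874). Mlx rose by 0.61 ± 0.08 (limma adjusted p 0.00287, but 0.0793 with both arrays numbered 2 left out). Mlxip was lower by -0.30 ± 0.08 (limma adjusted p 0.0418), a call lost without any 1 of the 6 arrays (up to 0.128) and with both arrays numbered 2 left out (0.171). It was also lost with eBayes without trend (0.0504), and when arrays were scaled to their hybridisation controls, where the difference was -0.18 (0.263).

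Ddit4, also called REDD1, restrains mTORC1 through the TSC complex. It had 1309, 1142 and 1145 after P4, against 1406, 1132 and 1359 after oil. All 3 P4 arrays lay within the range of the oil arrays, and oil replicate 2 was the lowest array of all. The means were 1199 ± 95.3 after P4 and 1299 ± 147 after oil (SD, n = 3 each), a difference of -0.11 ± 0.10, which turned to 0.02 when arrays were scaled to their hybridisation controls. Its relative Ddit4l, which also restrains mTORC1, had 642, 778 and 685 after P4, against 1619, 1623 and 1435 after oil, and fell by 1.14 ± 0.10 on the log2 scale (limma adjusted p 0.000753).

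Sod2, the superoxide dismutase of mitochondria, was the 1 of the 10 that was higher after P4. It had 1313, 1263 and 1460 after P4, against 864, 914 and 971 after oil, with no overlap (means 1345 ± 102 after P4 and 917 ± 53.7 after oil, SD, n = 3 each; 0.54 ± 0.09). Probe sets with 996, 1105 and 1002 after P4, against 651, 654 and 758 after oil, and with 414, 441 and 439 after P4, against 341, 266 and 347 after oil, showed the same separation. The fourth probe set was dim and overlapped (-0.05 ± 0.10). Sod2 is also high in activated granulocytes. The summed intensity of 6 granulocyte markers was 490, 6932 and 9793 on the P4 arrays, against 492, 481 and 6473 on the oil arrays. S100a8 and S100a9 made up most of that sum on the arrays where it was high. Of the 6 markers 0 passed in limma or had an unadjusted p under 0.05. P4 replicate 1, with 1313 for Sod2, was low in the granulocyte sum, while P4 replicate 3 was the highest array in both (1460 and 9793). P4 replicate 2 was also high in that sum (6932) but had the lowest Sod2 of the P4 arrays (1263). Among the oil arrays replicate 3 was the highest in both (971 and 6473). The part of granulocytes in the Sod2 difference was not tested.

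Neither of the other superoxide dismutases passed as higher. Sod1 of the cytosol, named after its values were seen, had 3361, 3550 and 3948 after P4, against 3735, 4079 and 3608 after oil (-0.07 ± 0.08, limma adjusted p 0.669). The secreted Sod3 had 195, 229 and 192 after P4, against 286, 281 and 323 after oil (-0.50 ± 0.10, limma adjusted p 0.0171). The Sod3 call was lost without P4 replicate 3 or any 1 oil array (up to 0.0574) and with both arrays numbered 2 left out (0.098). It was also lost with the mean of its probe sets (0.0662) or when arrays were scaled to their hybridisation controls (0.0706).

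In the list of 17 relatives of the 10 genes, 2 were higher, Ccng1 and Sesn2, and 4 lower, Arrdc3, Ddit4l, Sod3 and Fbxo25. The median log2 difference was -0.20, against -0.01 for all genes, of which 6.08% were higher and 6.94% lower. When arrays were scaled to their hybridisation controls, 2 were higher and 2 lower, beside 1927 higher and 624 lower of all 18193 genes. Sesn2 had 198, 218 and 169 after P4, against 142, 141 and 136 after oil, opposite in direction to Sesn1 and Sesn3. Its difference of 0.43 ± 0.11 (limma adjusted p 0.0349) no longer passed without any 1 array other than P4 replicate 3 (up to 0.113) or with both arrays numbered 2 left out (0.261). The kinase inhibitors related to Cdkn1b gave no call. Cdkn1a had 502, 432 and 357 after P4, against 371, 297 and 250 after oil (0.47 ± 0.17, limma adjusted p 0.107, 0.0052 with the replicate number as a block). Cdkn1c had 988, 1304 and 1142 after P4, against 1876, 1983 and 1270 after oil (-0.55 ± 0.18, limma adjusted p 0.082, 0.0245 with the block and 0.0143 without oil replicate 3).

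Other genes that are known FoxO targets in at least some tissues were mostly lower or not called. Of 39 measured, 16 were lower, 1 was higher and 22 did not pass, where 6.94% of all genes were lower and 6.08% higher. The 16 include Ccnd1, which FoxO factors repress rather than induce, so the count does not separate induced from repressed targets. The median of the 39 was -0.31, against -0.01 for all genes. The list was put together with earlier results of these arrays known, some of which named its members, so that its direction is not independent evidence. Scaling to the hybridisation controls moved the median of all genes to 0.12, and 12 of the list were then lower and 2 higher. Of all 18193 genes, 624 were lower and 1927 higher with that scaling. With both arrays numbered 2 left out, 6 were lower and 0 higher, beside 72 lower and 99 higher of all genes.

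The largest of these decreases were those of Pik3ip1, Irs2 and Pdk4. Pik3ip1, an inhibitor of phosphoinositide 3-kinase, fell to 503, 401 and 557 after P4, against 1696, 2085 and 1536 after oil (-1.83 ± 0.15, limma adjusted p 0.000672). Irs2, an adaptor of the insulin receptor, fell to 174, 304 and 213 after P4, against 605, 879 and 481 after oil (-1.44 ± 0.25, adjusted p 0.0095). Pdk4, which blocks pyruvate oxidation, fell to 95.6, 99.6 and 92.3 after P4, against 254, 281 and 299 after oil (-1.39 ± 0.09, adjusted p 0.000491). In all of these the groups lay apart.

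The death ligand Tnfsf10, the growth-slowing gene Ypel3 and the mitochondrial coactivator Ppargc1a fell by 1.29 ± 0.16, 1.27 ± 0.09 and 1.17 ± 0.18 on the log2 scale (limma adjusted p from 0.000547 to 0.00621). With both arrays numbered 2 left out, Tnfsf10 (0.0921) and Ppargc1a (0.104) no longer passed. Further members that fell, named after their values were seen, were Mxi1, an antagonist of MYC (-1.10 ± 0.08), Hbp1, a repressor that slows the cell cycle (-1.06 ± 0.08), the stress gene Gadd45a (-0.88 ± 0.15), and the autophagy and mitophagy genes Gabarapl1 (-0.74 ± 0.10) and Pink1 (-0.71 ± 0.12). Of these, Gadd45a, Gabarapl1 and Pink1 no longer passed with both arrays numbered 2 left out (limma adjusted p from 0.0807 to 0.125).

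Not all known effectors were lower. Trib1, named after its value was seen, was the 1 that rose (0.57 ± 0.10, limma adjusted p 0.0114). It no longer passed without oil replicate 2 (0.0551), with the mean of its probe sets (0.071) or with both arrays numbered 2 left out (0.155). Cat, the catalase gene, and Rbl2, which encodes a pocket protein that holds cells out of the cycle, are named after their values were seen, and neither passed. Cat had 1341, 1168 and 952 after P4, against 1170, 1093 and 1293 after oil (-0.05 ± 0.13), and Rbl2 had a difference of -0.05 ± 0.09. Ccnd1, a cyclin that FoxO factors repress rather than induce, was also lower (-0.31 ± 0.08, limma adjusted p 0.038), a call lost without any 1 array other than P4 replicate 1 (up to 0.128) and with both arrays numbered 2 left out (0.197). It was also lost with eBayes without trend (0.0564) or when arrays were scaled to their hybridisation controls (0.202).

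**Figure D3:**
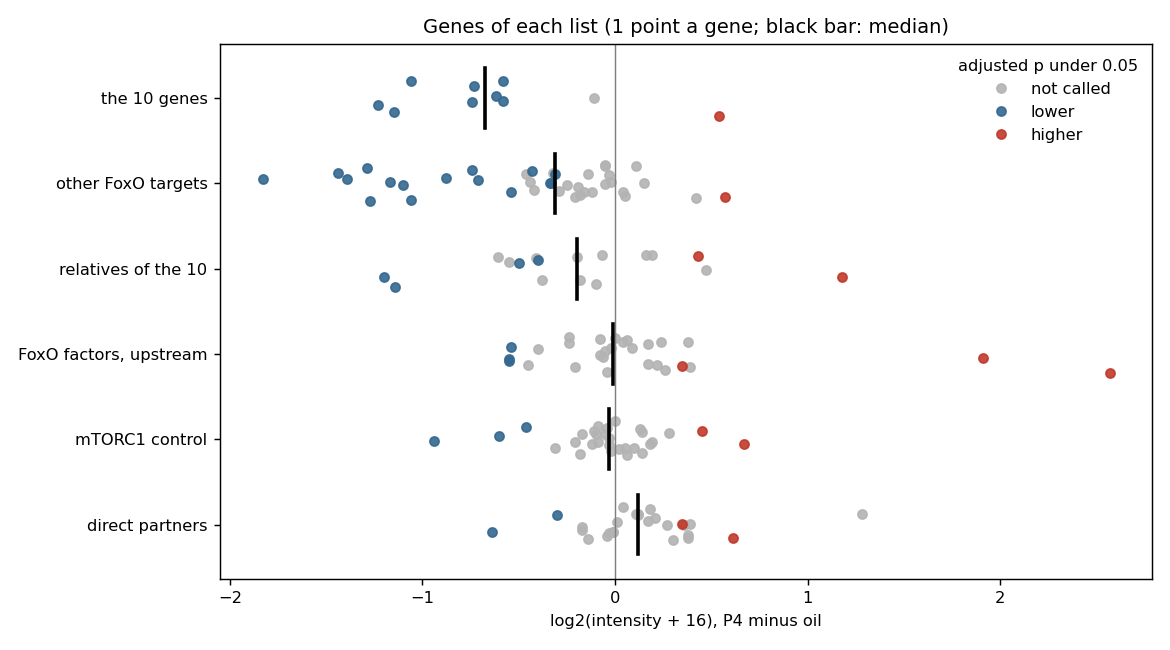
Log2 difference of P4 minus oil for each gene of the 10 and of the other lists, 1 point a gene, with the median of each list as a black bar; blue points passed as lower, red as higher and grey did not pass at an adjusted p under 0.05. The medians run from -0.68 for the 10 genes and -0.31 for other FoxO targets to 0.12 for the direct partners.

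Of the FoxO factors themselves, Foxo4 passed as lower, and Foxo1 and Foxo3 did not pass. Foxo4 had 235, 254 and 226 after P4, against 344, 387 and 338 after oil (-0.55 ± 0.09, limma adjusted p 0.00853). With the mean of its probe sets the Foxo4 difference was smaller, at -0.27 (limma adjusted p 0.0327). Foxo1 had 1344, 1091 and 945 after P4, against 1550, 1528 and 1357 after oil, without overlap, and missed the threshold (-0.40 ± 0.13, adjusted p 0.0868). It passed with the replicate block (0.0149), without P4 replicate 1 (0.0177) and with the mean of its probe sets (0.0476). Its brightest probe set has an _s_at name, and it also passed without probe sets named _x_at or _s_at (0.0234). Foxo3 had a difference of -0.24 ± 0.09 and did not pass (adjusted p 0.117). Transcript level says nothing about phosphorylation or nuclear location, which set FoxO activity.

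In the list of 28 measured genes that holds the FoxO factors and the genes upstream of them, 3 were higher and 3 lower, Foxo4 among the lower ones, with a median of -0.01. These shares stand beside 6.08% higher and 6.94% lower over all genes. Sgk1, a kinase that phosphorylates FoxO proteins, rose to 4554, 4341 and 4365 after P4, against 691, 608 and 929 after oil (2.57 ± 0.14, limma adjusted p 0.000421). Igf1, a ligand that activates the pathway, rose by 1.91 ± 0.18 (adjusted p 0.000981, but 0.0577 with both arrays numbered 2 left out). Igf1r, its receptor, was lower by -0.54 ± 0.08 (adjusted p 0.00678), Irs1, an adaptor of that receptor, by -0.55 ± 0.13 (0.0345), and Pik3r3, a regulatory subunit of the kinase, was higher by 0.35 ± 0.09 (0.0432). The Irs1 call was lost without P4 replicate 2 or 3 or oil replicate 1 or 2 (up to 0.113), with both arrays numbered 2 left out (0.23) and when arrays were scaled to their hybridisation controls (0.0804). The Pik3r3 call was lost without any 1 of the 6 arrays (up to 0.154) and with both arrays numbered 2 left out (0.231), and those of Foxo4 (0.103) and Igf1r (0.118) with both arrays numbered 2 left out. With the replicate block 7 of the list were higher and 6 lower, beside 1690 higher and 2111 lower of all 18193 genes. When arrays were scaled to their hybridisation controls 8 were higher and 2 lower, beside 1927 higher and 624 lower of all genes.

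Among 30 genes of mTORC1 and the complexes through which sestrins and Ddit4 act on it, 2 were higher and 3 lower (median -0.03), beside 6.08% higher and 6.94% lower over all genes. Deptor, an inhibitor of mTOR, had 621, 863 and 643 after P4, against 1594, 1292 and 1218 after oil (-0.94 ± 0.15, limma adjusted p 0.00725). Castor2, of a family of arginine sensors that restrain mTORC1, was lower by -0.60 ± 0.09 (adjusted p 0.0049) and Tsc1, of the TSC complex, by -0.46 ± 0.10 (adjusted p 0.02). Sec13, a GATOR2 subunit that also serves vesicle coats and nuclear pores, rose by 0.67 ± 0.07 (adjusted p 0.00156), and Rraga, a small GTPase that recruits mTORC1 to lysosomes, by 0.45 ± 0.12 (adjusted p 0.0435). Mtor itself, named after its values were seen, had 679, 693 and 629 after P4, against 680, 688 and 609 after oil. When arrays were scaled to their hybridisation controls, 3 were higher and 2 lower, beside 1927 higher and 624 lower of all 18193 genes. With both arrays numbered 2 left out 0 of the 30 passed in limma, 6 with an unadjusted p under 0.05 (adjusted p 0.0562 for Deptor and 0.0577 for Sec13), and without P4 replicate 2 or 3 or oil replicate 1 or 2, 3 did. Tsc1 and Rraga lost their calls without most single arrays (up to 0.0861 and 0.147). Tsc1 also lost its call with the mean of its probe sets, where the difference was -0.21 (0.123), and when arrays were scaled to their hybridisation controls (0.0697), and Rraga with eBayes without trend (0.051).

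Of 26 direct partners of the 10 genes, 2 were higher, Mlx and Txn2, and 2 lower, Cdk6 and Mlxip (median 0.12), beside the same 6.08% and 6.94% over all genes. Cdk6, a kinase of the early cell cycle, had 602, 799 and 777 after P4, against 1154, 1061 and 1186 after oil (-0.64 ± 0.12, limma adjusted p 0.012, but 0.0517 without oil replicate 1 and 0.0984 with both arrays numbered 2 left out). Txn2, the mitochondrial thioredoxin, rose by 0.35 ± 0.08 (adjusted p 0.0284), a call lost without any 1 array other than P4 replicate 1 (up to 0.0932). The Txn2 call was also lost without probe sets named _x_at or _s_at (0.0821) and with both arrays numbered 2 left out (0.2). Cdk2, a main target of Cdkn1b that is named after its values were seen, had a difference of -0.17 ± 0.11 (adjusted p 0.381). With the replicate block 8 of the list were higher and 2 lower, beside 1690 higher and 2111 lower of all 18193 genes. When arrays were scaled to their hybridisation controls 6 were higher and 1 lower, beside 1927 higher and 624 lower of all genes. With both arrays numbered 2 left out 0 of the 26 passed in limma, 5 with an unadjusted p under 0.05.

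Within the groups the 10 genes deviated in different ways from array to array. Deviations from the group means over the 6 arrays correlated from -0.961 for Klhl24 and Txnip to 0.997 for Sesn1 and Cdkn1b over the 45 pairs, with 18 above 0 and a median of -0.169. Sesn1 and Cdkn1b deviated by 0.14 and 0.12 on P4 replicate 1, by -0.13 and -0.11 on P4 replicate 2 and by -0.12 and -0.10 on oil replicate 3. With so few arrays, which all genes share, these values only describe the arrays.

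Genes outside the 10 whose log2 values over the 6 arrays were most like theirs were sought among 9086 genes brighter than the median. Msrb2 was the nearest to both Sesn1 (Pearson r 0.998) and Cdkn1b (0.998). The nearest to Sesn3 was Rictor (0.998), to Fbxo32 Sash1 (0.998), to Klhl24 Ift52 (0.998), to Ccng2 Ap4b1 (0.998), to Txnip Jag1 (0.9998), to Bcl6 Rab10os (0.997), to Sod2 Pinx1 (0.998) and to Ddit4 Rprd1a (0.969). Any gene with a clear step between the groups correlates highly with another such gene over so few arrays.

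Median intensity ran from 117 to 123 over the arrays, and markers of uterine epithelium, stroma and smooth muscle were bright on all 6. The granulocyte sum was high on P4 replicates 2 and 3 and oil replicate 3, mostly from S100a8 and S100a9. Csf3r and Cxcr2 were also highest on P4 replicate 3 and oil replicate 3, and Ngp was highest on P4 replicate 2. Mpo did not follow, with 109, 194 and 89.4 after P4, against 113, 89.2 and 115 after oil. Of the 4 adipose markers 0 passed in limma, 2 had an unadjusted p under 0.05, both lower after P4, and their summed intensity was 496, 860 and 329 on the P4 arrays, against 1466, 1545 and 831 on the oil arrays. Of the 6 skeletal muscle markers Acta1 passed as higher, with 1264, 2851 and 1622 after P4, against 668, 542 and 727 after oil, and makes up most of the list's summed intensity. The other 5 did not pass, and the median log2 difference of the list was -0.01. The summed intensity of 5 endothelial markers was 4381, 4029 and 4224 on the P4 arrays, against 4509, 4979 and 4896 on the oil arrays, without overlap, and Tek was the 1 of them that passed, as lower (-0.38 ± 0.10, limma adjusted p 0.0404). Among 7 stromal markers 1 passed, Lum, also as lower (-0.90 ± 0.18, limma adjusted p 0.0156). Of the 7 epithelial markers Cldn3 passed, as higher (1.21 ± 0.12, limma adjusted p 0.00124), and the list median was -0.34. Krt18 (-0.62 ± 0.19) and Krt19 (-0.34 ± 0.10) were lower without overlap and did not pass, with an unadjusted limma p under 0.05. The summed intensity of 5 macrophage and leukocyte markers was 1650, 5498 and 5406 on the P4 arrays, against 2181, 3203 and 6142 on the oil arrays. It varied widely within both groups, and 0 of the 5 passed in limma or had an unadjusted p under 0.05. The part of fat, granulocytes, macrophages, muscle, epithelium, endothelium or stroma in the differences of the 10 genes was not tested.

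**Figure D4:**
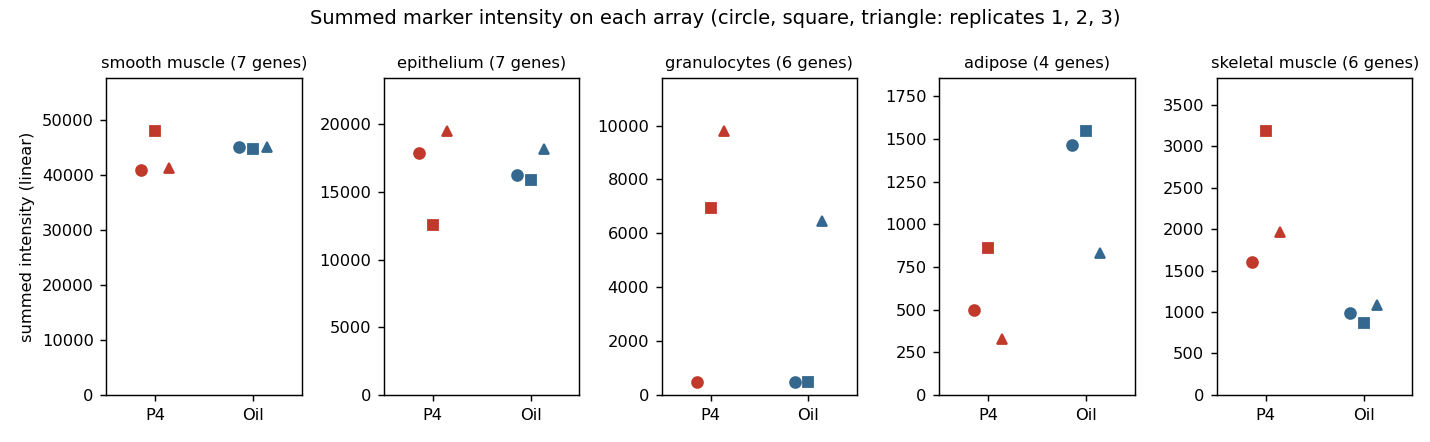
Summed linear intensity of the markers of 5 cell types on each array, P4 at the left and oil at the right of each panel; circles, squares and triangles are replicates 1, 2 and 3. The granulocyte sum is high on 3 arrays from both groups, mostly from S100a8 and S100a9. The adipose sum is lower on P4 replicates 1 and 3 than on every oil array.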

How the data were processed

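Biotin-labelled cRNA was made from total RNA and hybridised to expression arrays, per the labels' protocols. The values the authors deposited are intensities on a linear scale, with 1 value for each probe set on each array. Their summarisation and scaling were not given in the sources used. The number of arrays limits the precision.

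Groups followed the sample titles. Tests used log2(intensity + 16) without another normalization, since array medians differed by 0.059 log2. Probe sets with 1 gene symbol in the platform annotation (34945 of 45101) were used; each gene was read by its brightest probe set, and all probe sets of the 10 genes are described. P4 and oil were compared by lmFit and a trended eBayes of limma 3.58.1 (R 4.3.3), adjusted over 18193 genes by Benjamini-Hochberg, and the fit was tested on simulated data. For the 10 genes no p-value is given. The members and lists were chosen with earlier results of these data known. Named genes were up to 6 called genes of each list by size, 13 set genes and, for each of the 10, the gene of most similar profile; others are named as chosen after their values were seen. Of the genes listed 18 are not analysed here.

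The groups share replicate numbers. For numbers 1, 2 and 3 the same-numbered P4 and oil arrays deviated together (r 0.53, 0.13 and 0.64 after each group's mean was removed), each over the limit of 0.1, although oil 2 went more with P4 1 (r 0.29). The labels state no pairing. These r values do not settle one, since the deviations within a group cancel and the values thus constrain each other. Calls with the replicate block rest on an assumed pairing. The main tests have no pairing term, and a replicate block was fitted as an alternative. Alternatives were quantile normalization, scaling to the hybridisation controls, pseudocounts of 1 and 50, leaving out the dimmest 30% of genes, averaging all probe sets, leaving out probe sets named _x_at or _s_at, eBayes without trend, the replicate block, each array left out and both arrays numbered 2 left out. The brightest probe sets of Sesn1, Foxo1, Gabarapl1 and Txn2, among others, have _x_at or _s_at names. Figures were drawn with matplotlib 3.10.9.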

Additional observations from a re-analysis of the deposited data

How the results depend on the processing

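Over 16 alternatives each of the 9 genes of the 10 that passed kept its direction. The number that passed was 8 without P4 replicate 2 (range with single arrays left out 8 to 9). With both arrays numbered 2 left out it was 3, namely Sesn3, Fbxo32 and Klhl24, and in all other alternatives it was 9. Since the 10 genes were chosen on this contrast and the alternatives use the same arrays, nothing is read from these counts or kept directions. Log2 differences ran from -1.31 to -0.93 for Klhl24, from -0.64 to -0.36 for Cdkn1b and from 0.38 to 0.67 for Sod2. Without both arrays numbered 2 the counts of calls were 171 for all genes (2368 with all arrays), 2 for relatives (6), 6 for other FoxO targets (17), 1 for FoxO factors and upstream genes (6), 0 for the mTORC1 list (5) and 0 for direct partners (4), where limma gave 6 and 5 genes an unadjusted p under 0.05. Leaving out single arrays gave 993 to 2302 calls among all genes, 3 to 6 among relatives, 13 to 18 among other FoxO targets, 4 to 10 among FoxO factors and upstream genes, 3 to 5 in the mTORC1 list and 1 to 4 among direct partners. With the replicate block, the counts were 3801 for all genes, 13 for FoxO factors and upstream genes and 10 for direct partners; it changed no call among the 10 genes. Scaling to the hybridisation controls, which were 0.127 log2 dimmer on the P4 arrays (-0.127), gave 10 calls among FoxO factors and upstream genes and 7 among direct partners; over all genes 75.5% of calls were then higher, against 46.7%. The causes were not tested. Signal near the background limits the dim probe sets.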
